A study of Mus musculus with 6 samples.

Results

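A set of 10 genes used to recognise blood stem and progenitor cells was followed in the bone marrow of mice after tumour surgery. They were selected by symbol, and each was found among the 56496 genes of the table. RNA-seq covered 6 libraries of bone marrow cells from female BALB/c mice, labelled WT, from which a tumour of the 4T1 mouse mammary carcinoma line had been resected. The 3 Onway libraries (Onway 1, Onway 2 and Onway 3) came from mice that received Onway for 2 weeks, by gavage, and carry the label day 14. The 3 Control libraries (Control 4, Control 5 and Control 6) came from mice that were resected in the same way but not given Onway, and carry the label day 0, so the effect of the treatment and that of the labelled day cannot be told apart. The composition of Onway and the age of the mice were not stated in the labels. The extraction text in the labels also describes a culture medium with dexamethasone, isobutylmethylxanthine and insulin, and does not say whether it applied to these marrow cells. Separate mice are not stated for the libraries, and p-values then measure only how these libraries vary. Values listed for a group follow the order Control 4, Control 5, Control 6 or Onway 1, Onway 2, Onway 3.

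All blood cells descend from haematopoietic stem cells, which are rare in marrow and are recognised by combinations of surface proteins and transcription factors. Kit, Ly6a (Sca-1), Slamf1 (CD150) and Procr (EPCR) are carried by mouse stem cells, whereas Cd48 marks progenitors and most other blood cells but not resting stem cells, and Cd34 in adult mice appears as stem cells become progenitors. Hlf, Mecom and Meis1 encode transcription factors needed for stem cell self-renewal. Several of these genes are also made elsewhere in marrow. Megakaryocytes, the platelet-forming cells, share Slamf1 and Meis1 with stem cells, and endothelium, the lining of blood vessels, makes Cd34, Procr, Mecom, Ly6a and Ctla2a, an inhibitor of cathepsin-type proteases. These 7 genes are treated as shared members. Kit, Hlf and Cd48 are treated as the other members, although mast cells and erythroid progenitors carry Kit and lymphocytes carry Cd48.

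The members divided between 2 genes that were much lower in Onway and 6 tested genes that were not called. Slamf1 and Ctla2a fell, to a level 11.2-fold and 4.33-fold below Control. Kit, Cd34 and Hlf had nearly equal means in the groups. Values are in TPM, an abundance per transcript length scaled to a library total of 1000000, summed over the transcripts of a gene. A gene was tested where its TPM averaged 1 or more across the libraries, with limma on log2(TPM + 1), and p-values were adjusted by the Benjamini-Hochberg method for the 14192 genes tested. Of the 8 members that passed this minimum, 2 were lower and 0 were higher in Onway at an adjusted p under 0.05, and 3 had an unadjusted p under 0.05, all of them lower. Over all tested genes 2.99% were lower and 0.233% were higher, and at an unadjusted p under 0.05 8.42% were lower and 4.95% higher (13.4% in all). The median log2 fold change was −0.04 over the 8 members and 0.03 over all tested genes. Both called genes exceeded 1 TPM on average in each group, so neither passed the minimum through Control alone.

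**Figure D1:**
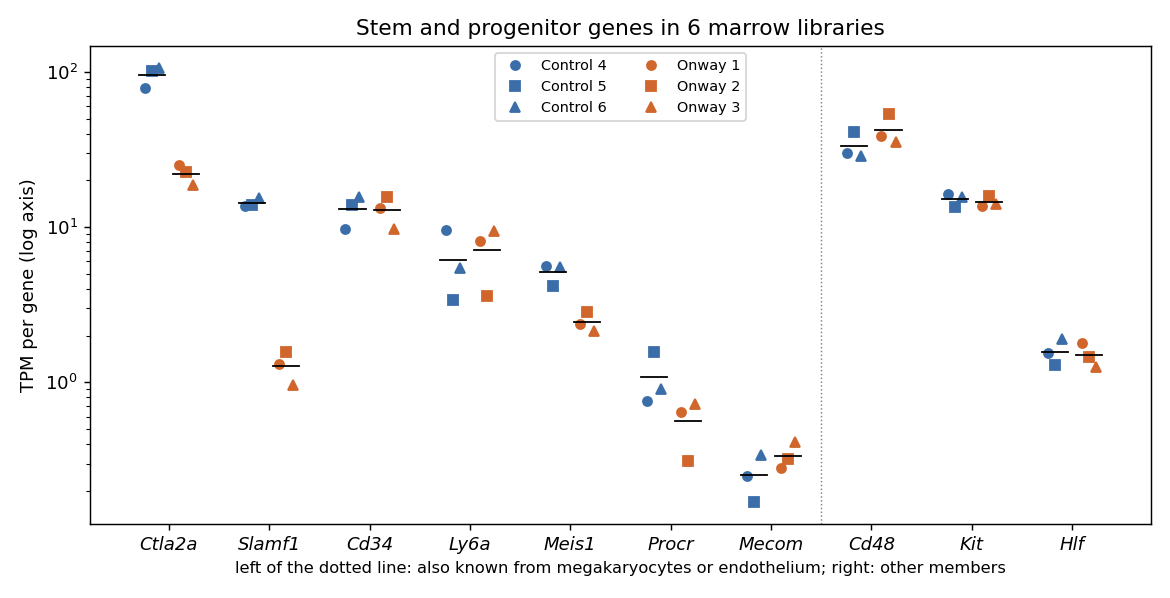
TPM of the 10 members in each library on a log axis, with Control in blue, Onway in orange and the group mean as a black line. Slamf1, Ctla2a, Meis1 and Procr do not overlap between the groups, and the other 6 members do.

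Marker sums of some other cells in the tissue were lower in Onway too. Those of erythroid cells, neutrophil progenitors, lymphocytes, and mast cells with basophils overlapped between the groups. Mpo and Elane, granule enzymes of neutrophil progenitors, ranged from 742 to 2222 TPM and from 544 to 2013 TPM, and Klf1, an erythroid transcription factor, from 48.4 to 171 TPM, so blood-forming marrow was present in each library. Haemoglobin genes took from 9.38% to 33.9% of the TPM and were highest in Control 4 (26.6%) and Onway 3. The 18 megakaryocyte and platelet markers summed to 2430 to 2750 TPM in Control and 143 to 228 TPM in Onway, and the 18 endothelial markers to 113 to 146 TPM and 47.9 to 54.6 TPM. The 12 skeletal muscle genes summed to 636 to 4148 TPM and 17.5 to 24.4 TPM, and the 12 stromal and bone-forming genes to 425 to 1243 TPM and 27.4 to 42.7 TPM. None of these 4 sums overlapped between the groups. The called markers were all lower in Onway, and some averaged under 1 TPM there and so passed the minimum only through Control. That was so for 2 of the 18 called megakaryocyte markers, 5 of 10 endothelial, 6 of 10 muscle and 5 of 10 stromal markers, so these counts are given as a description. The markers tested numbered 18, 17, 11 and 11 in that order, and 2.99% of all tested genes were called lower. In bulk marrow, fewer cells of a type and less RNA per cell cannot be told apart.

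The stretches upstream of Slamf1, Ctla2a and Meis1, the 3 tested members without overlap between the groups, and of Cd34, which had nearly equal means, are shown to compare the genes that were lower with a gene that was not. Each is the 250 bases before the transcription start in RefSeq (GRCm38.p6), written 5′ to 3′ on the strand of the gene, and capitals mark the GATA motif, which is bound by factors of stem cells, megakaryocytes and erythroid cells. The motif was searched on both strands as AGATAA or as AGATAG, and likewise as TGATAA or as TGATAG. The windows are at chr1:171766882-171767131 (plus strand) for Slamf1, chr13:60936626-60936875 (minus strand) for Ctla2a, chr11:19018970-19019219 (minus strand) for Meis1 and chr1:194938571-194938820 (plus strand) for Cd34.
Slamf1: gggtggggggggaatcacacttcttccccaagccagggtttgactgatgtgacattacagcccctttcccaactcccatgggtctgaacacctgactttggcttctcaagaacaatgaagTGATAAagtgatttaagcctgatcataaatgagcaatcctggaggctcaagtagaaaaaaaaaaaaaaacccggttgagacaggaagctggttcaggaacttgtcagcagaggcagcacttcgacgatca
Ctla2a: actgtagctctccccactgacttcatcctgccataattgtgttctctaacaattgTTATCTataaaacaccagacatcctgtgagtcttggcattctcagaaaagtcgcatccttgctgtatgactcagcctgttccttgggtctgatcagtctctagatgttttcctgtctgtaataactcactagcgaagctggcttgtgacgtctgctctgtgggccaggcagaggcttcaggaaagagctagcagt
Meis1: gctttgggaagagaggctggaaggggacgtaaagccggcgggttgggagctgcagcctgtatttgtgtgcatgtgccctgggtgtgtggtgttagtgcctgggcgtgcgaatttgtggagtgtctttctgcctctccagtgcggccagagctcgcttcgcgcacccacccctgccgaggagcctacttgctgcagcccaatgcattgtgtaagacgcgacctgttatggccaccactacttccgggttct
Cd34: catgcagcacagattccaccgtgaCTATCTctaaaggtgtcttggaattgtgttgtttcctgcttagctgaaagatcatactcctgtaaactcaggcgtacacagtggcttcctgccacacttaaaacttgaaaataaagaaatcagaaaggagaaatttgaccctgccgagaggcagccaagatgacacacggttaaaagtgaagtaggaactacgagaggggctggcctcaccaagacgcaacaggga
The GATA letters lie 130 bases before the start in Slamf1, 195 in Ctla2a and 226 in Cd34, and the Meis1 window holds none. Thus 2 of the 3 lower genes and the flat gene hold a match in the windows shown. A further Ctla2a window, for another start (chr13:60936567-60936816), holds none. RefSeq promoters were found for 9 of the 10 members (not Ly6a), in 12 windows for different starts, some of which overlap. Of the 12 windows 5, from 4 members, held a GATA match, beside 26.5% of the 32851 promoter windows of the table. TGTGGT, the core bound by RUNX factors, was present in 2 of the 12 windows, those of Meis1 and Cd48, and in 14.05% of all. The other motifs searched were the ETS motif (CCGGAA or CAGGAA) and the E-box (CANNTG, N for any base). The ETS motif was in 7 of the 12 windows and 35.1% of all, and the E-box in 7 of the 12 and 66.2% of all. These are matches of letters, with no measurement of binding.

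Slamf1 codes for the surface receptor CD150 and lies on chromosome 1, 171767127 to 171801184 (GRCm38, plus strand). The Control libraries had 13.75, 13.85 and 15.35 TPM of Slamf1, and the Onway libraries had 1.31, 1.57 and 0.960 TPM. The Control libraries lay close together and every Onway library was far below all of them. The means were 14.3 ± 0.896 and 1.28 ± 0.306 TPM (SD, n = 3 per group), and Slamf1 fell by 2.76 on the log2(TPM + 1) scale (SE 0.18, 95% confidence interval −3.18 to −2.33, limma adjusted p = 0.00051). It ranked 18 among all tested genes by p. All 4 Slamf1 transcripts in the table followed the gene. The transcript coding for 343 residues held 76.4% ± 2.36 of Slamf1 TPM in Control and 77.3% ± 3.58 in Onway, and was at 10.9 ± 0.920 and 0.987 ± 0.231 TPM. The division of Slamf1 among its transcripts was thus much the same at very different levels of the gene.

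Ctla2a lies on chromosome 13, 60934155 to 60936625 (minus strand). The Control libraries had 78.9, 100.7 and 106 TPM of Ctla2a, against 24.9, 22.6 and 18.5 TPM in the Onway libraries. The groups did not overlap, and Ctla2a kept a higher level in Onway than Slamf1 did. From 95.3 ± 14.5 to 22.0 ± 3.23 TPM, it fell by 2.06 on the log2 scale (SE 0.19, interval −2.50 to −1.62, limma adjusted p = 0.0014). Its transcripts did not change in proportion. The transcript coding for 137 residues averaged 45.7 ± 11.6 TPM in Control against 6.44 ± 1.63 TPM in Onway (7.09-fold), while a retained-intron transcript of 1002 bases was at 5.84 ± 2.54 and 3.65 ± 0.592 TPM (1.599-fold) with overlapping groups. Transcript values are estimates by the authors' quantifier and were not tested. Ctla2a is also hard to count apart from its relatives. Of its 31-base words, 37.3% occur in transcripts of other genes, chiefly Gm49391 and its neighbour Ctla2b, and Gm49391 and Gm49393 overlap it on the same strand. Ctla2b, a near copy 36.7 kb away, was at 27.7 ± 2.41 and 4.39 ± 0.578 TPM and fell as well (log2 fold change −2.41, SE 0.17, limma adjusted p = 0.00052). Ctla2a and Ctla2b together made 123 ± 13.6 and 26.4 ± 3.75 TPM, which is 4.66-fold less in Onway, without overlap.

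Meis1, a homeobox factor that works with HOX and PBX proteins, was lower in every Onway library but did not pass the threshold. It lies on chromosome 11, 18879817 to 19018985 (minus strand). Meis1 stood at 5.65, 4.16 and 5.53 TPM among the Control libraries, compared with 2.36, 2.83 and 2.15 TPM among the Onway libraries. The groups did not overlap, and the means were 5.11 ± 0.828 and 2.45 ± 0.348 TPM (log2 fold change −0.82, SE 0.20, interval −1.28 to −0.37, limma adjusted p = 0.082). When libraries were scaled by median-of-ratios size factors the adjusted p was 0.037. The transcript coding for 390 residues gave 1.70, 1.32 and 1.63 TPM for Control, against 0.0700, 0.150 and 0.530 TPM for Onway, with no overlap. The transcript coding for 465 residues was at 0.587 ± 0.403 and 0.697 ± 0.290 TPM, with overlap, so the difference in the gene lay in the shorter product and in a non-coding transcript of 2008 bases (2.54 ± 0.595 and 1.09 ± 0.223 TPM). These single-transcript levels are low, and 9.51% of the 31-base words of Meis1 occur in transcripts of other genes, among them Gm37818, which overlaps it on the same strand.

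**Figure D2:**
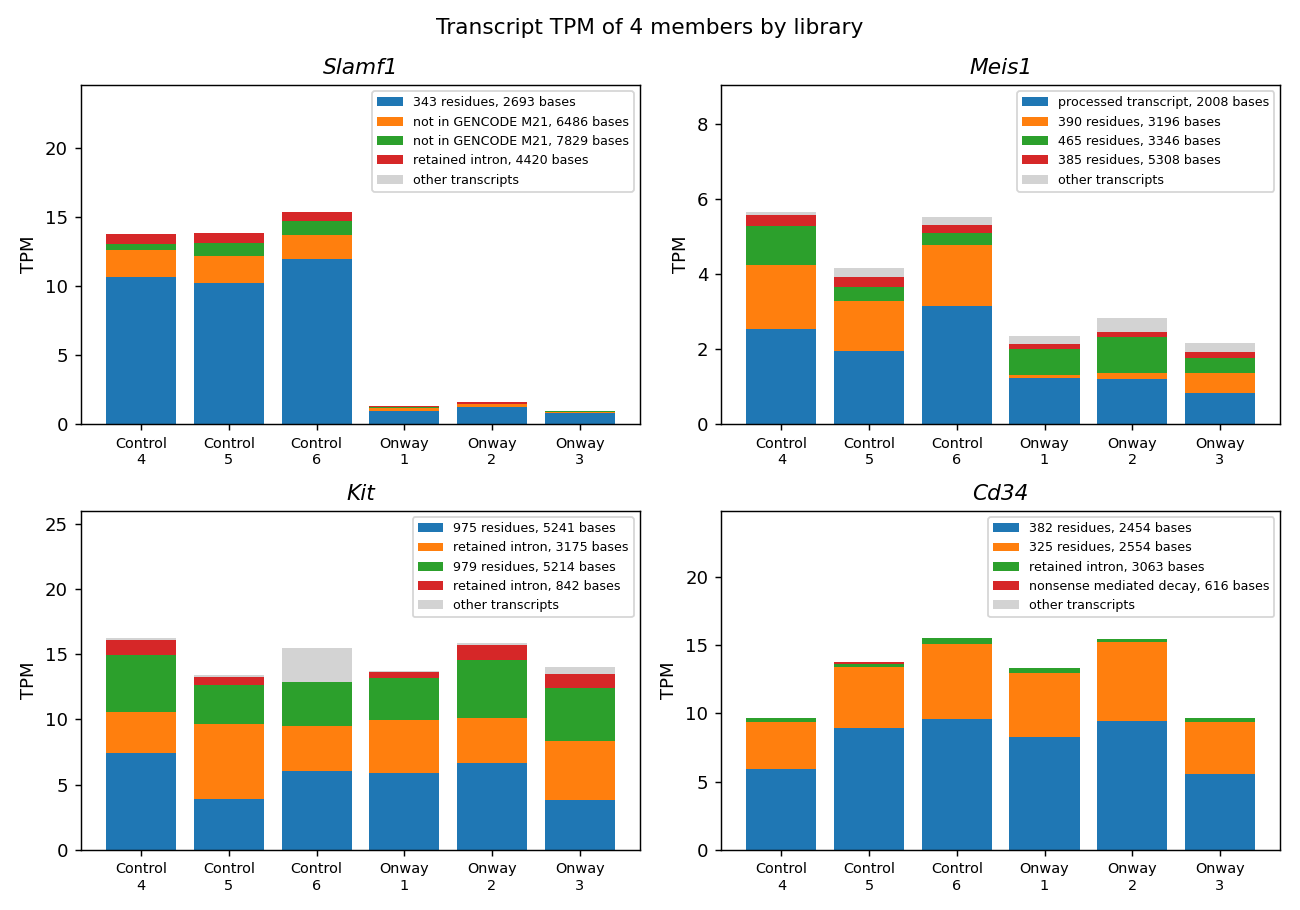
TPM of the transcripts of Slamf1, Meis1, Kit and Cd34 stacked by library, with the 4 most abundant transcripts of each gene in colour and the rest in grey. Slamf1 shrinks in all parts in Onway, and the 390-residue transcript of Meis1 is much smaller in Onway while the 465-residue transcript is not. Cd34 keeps its composition. That of Kit varies between libraries of a group, where the 3175-base retained-intron transcript takes 19.2%, 43.2% and 22.4% in Control.

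Procr, the endothelial protein C receptor, and Mecom, a zinc finger factor of stem cells and endothelium, had means under 1 TPM and were not tested. Procr (chromosome 2, 155751117 to 155755471, plus strand) measured 0.760, 1.57 and 0.910 TPM among Control libraries and 0.640, 0.310 and 0.730 TPM among Onway libraries. Its groups did not overlap, by a margin of a few hundredths of a TPM. Mecom (chromosome 3, 29951296 to 30548008, minus strand) measured 0.250, 0.170 and 0.340 TPM and, for Onway, 0.280, 0.320 and 0.410 TPM, with overlap. Of 17 Mecom transcripts 10 were above 0 in any library, and none carried most of the signal in each library. With no minimum on the level, the adjusted p was 0.53 for Procr and 0.74 for Mecom. Over the 8 tested members 3 had Onway wholly below Control and 0 wholly above, beside 11.5% and 6.95% of all tested genes.

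Kit encodes the receptor for stem cell factor and lies on chromosome 5, 75574916 to 75656722 (plus strand). The Control libraries had 16.3, 13.4 and 15.5 TPM of Kit, and the Onway libraries had 13.7, 15.9 and 14.1 TPM. The groups overlapped fully, and Kit varied less within a group than any other member, apart from Slamf1 in Control, with an SD of 9.89% of the mean in Control and 8.11% in Onway. The log2 fold change was −0.04 (SE 0.16, limma adjusted p = 0.94), and its 95% interval ran from 0.749-fold to 1.26-fold. Annotated Kit proteins come in a form of 979 and a form of 975 residues, which differ by 4 residues. The 979-residue transcript held 23.7% ± 2.97 of Kit TPM in Control and 27.0% ± 2.72 in Onway, and the 975-residue transcript 37.8% ± 8.47 and 37.4% ± 8.96. A retained-intron transcript took 28.2% ± 13.02 and 27.8% ± 5.65.

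Hlf, a leucine zipper factor (chromosome 11, 90336536 to 90390895, minus strand), measured 1.54, 1.30 and 1.89 TPM among Control libraries and 1.79, 1.45 and 1.26 TPM among Onway libraries. The groups overlapped. The log2 fold change was −0.04 (SE 0.21, limma adjusted p = 0.96) with an interval from 0.690-fold to 1.37-fold on the TPM + 1 scale, which understates changes of genes near 1 TPM. Its 295-residue transcript was at 0.987 ± 0.375 and 0.653 ± 0.0702 TPM and a non-coding transcript at 0.563 ± 0.199 and 0.810 ± 0.390 TPM. No transcript of another gene shared a 31-base word with Hlf or with Kit.

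Cd34, a sialomucin of progenitors and endothelium (chromosome 1, 194938819 to 194961279, plus strand), measured 9.68, 13.8 and 15.6 TPM among Control libraries, compared with 13.3, 15.5 and 9.66 TPM among Onway libraries. The lowest values were those of Control 4 and Onway 3, which also had the most haemoglobin RNA, and the part of the erythroid content in this was not tested. Group means were 13.01 ± 3.01 and 12.8 ± 2.95 TPM (log2 fold change −0.02, SE 0.24, limma adjusted p = 0.98), and the interval ran from 0.669-fold to 1.46-fold. The transcript for the full 382-residue protein held 62.6% ± 1.80 of Cd34 TPM in Control and 60.1% ± 2.35 in Onway. The transcript for the 325-residue form, which has a truncated cytoplasmic tail, held 34.5% ± 1.76 and 37.3% ± 2.07. An antisense gene, Gm16897, overlaps Cd34, and its own level did not exceed 0.150 TPM in any library.

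Ly6a, the Sca-1 antigen, is an interferon-inducible surface protein that stem cells of BALB/c mice carry at a low level compared with C57BL/6. It lies on chromosome 15, 74994877 to 74998031 (minus strand). The Control libraries had 9.52, 3.40 and 5.47 TPM of Ly6a, and the Onway libraries had 8.13, 3.62 and 9.49 TPM, the widest relative spread among the tested members (SD of 50.8% and 43.4% of the mean). The log2 fold change was 0.19 (SE 0.42, limma adjusted p = 0.90), and the interval from 0.572-fold to 2.27-fold leaves changes of more than 2-fold undetected. Of its 31-base words 31.9% occur in transcripts of other genes, chiefly Ly6c1, which was at 383 ± 164 and 421 ± 211 TPM, so the separate value of Ly6a is uncertain. Of 12 tested interferon-stimulated genes 0 passed the threshold in limma. At an unadjusted p under 0.05 there was 1, Mx1, higher in Onway, where 4.95% of all tested genes were higher. The list summed to 147 to 200 TPM in Control and 124 to 195 TPM in Onway.

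Cd48, a ligand of the SLAM family whose gene lies 61.9 kb from Slamf1 on chromosome 1 (171682009 to 171705258, plus strand), did not follow its neighbour. Cd48 stood at 29.8, 41.0 and 28.6 TPM among Control libraries, compared with 38.5, 53.5 and 35.4 TPM among Onway libraries. The groups overlapped, with Onway 2 the highest library. Means were 33.2 ± 6.81 and 42.5 ± 9.67 TPM (log2 fold change 0.34, SE 0.22, limma adjusted p = 0.57, interval from 0.887-fold to 1.81-fold). Its 240-residue transcript held 96.6% ± 2.61 of Cd48 TPM in Control and 96.6% ± 0.924 in Onway.

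TPM is scaled by transcript length, so the levels of members can be ordered within a group. In Control the order by mean was Ctla2a, Cd48, Kit, Slamf1, Cd34, Ly6a, Meis1, Hlf, Procr and Mecom. Neighbours in that order whose library ranges overlapped were Kit and Slamf1, Slamf1 and Cd34, Ly6a and Meis1, and Hlf and Procr. In Onway the order was Cd48, Ctla2a, Kit, Cd34, Ly6a, Meis1, Hlf, Slamf1, Procr and Mecom, and the overlapping neighbours were Kit and Cd34, Hlf and Slamf1, and Procr and Mecom. Slamf1 was thus level with Kit in Control and level with Hlf in Onway. The plot of levels by library shows this exchange of rank.

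Summed over genes, the 7 shared members came to 118, 138 and 149 TPM for the Control libraries, against 51.0, 46.7 and 41.9 TPM for the Onway libraries. The groups did not overlap, and the sums differed by −1.54 on the log2 scale (2.90-fold, two-sided exact permutation p = 0.1, the smallest that 20 assignments of 3 against 3 allow). Ctla2a made up most of this sum, and without it the difference was −0.70. That remainder still held Slamf1, the other called gene, and no sum was computed without both. The difference of the shared members therefore largely restates the calls of Ctla2a and Slamf1. The 3 other members summed to 47.6, 55.7 and 46.0 TPM and to 54.0, 70.8 and 50.7 TPM, with overlap and a log2 difference of 0.22 (exact permutation p = 0.3). Cd48 made up most of that sum, and without it the difference was −0.05 (exact permutation p = 0.8).

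Slamf1 and Ctla2a were next set against the marker sums within each library, to see whether they changed as much as the cells they share. Slamf1 stood at 0.500, 0.570 and 0.630 TPM per 100 TPM of megakaryocyte markers in Control and at 0.575, 0.901 and 0.673 in Onway, so that the groups overlapped (log2 difference 0.32, exact permutation p = 0.2). Against the endothelial markers it was at 9.42, 12.3 and 10.9 per 100 TPM in Control and 2.74, 2.87 and 1.78 in Onway, a 4.48-fold lower ratio without overlap (exact permutation p = 0.1). For Ctla2a the ratios to the marker sums went in opposite directions. Its ratio was 3.29-fold higher in Onway against the megakaryocyte markers and 1.70-fold lower against the endothelial markers, neither with overlap (exact permutation p = 0.1 for each). The endothelial margin was narrow, 54.0 in Control 4 against 52.1 in Onway 1. In Control, Pf4 and Ppbp averaged 801 and 846 TPM of the mean megakaryocyte sum of 2539 TPM. In Onway they averaged 52.9 and 26.3 TPM of 182 TPM. Pecam1 averaged 23.6 of 133 TPM of the endothelial sum in Control and 19.6 of 52.2 TPM in Onway. The ratios thus lean on a few abundant genes. Pecam1 itself was not called (limma adjusted p = 0.55). No ratio was computed without it, so whether Ctla2a stays apart from the other endothelial markers was not tested. Meis1 was 6.82-fold higher in Onway against the megakaryocyte markers and 1.22-fold higher against the endothelial markers (exact permutation p = 0.1 for each). Kit and Hlf had nearly equal means in the groups, so their ratios to the markers (13.8-fold and 2.46-fold higher in Onway for Kit) restate the lower marker sums. In all 16 ratios were computed. After Benjamini-Hochberg adjustment over the 16, the smallest exact p was 0.11. Among the megakaryocyte markers Selp was listed at 0 in Onway 3, and the defining markers Pf4, Itga2b and Gp9 and the endothelial markers Cdh5, Emcn and Pecam1 were above 0 in each library. Their part in the levels of Slamf1 and Ctla2a was not tested.

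**Figure D3:**
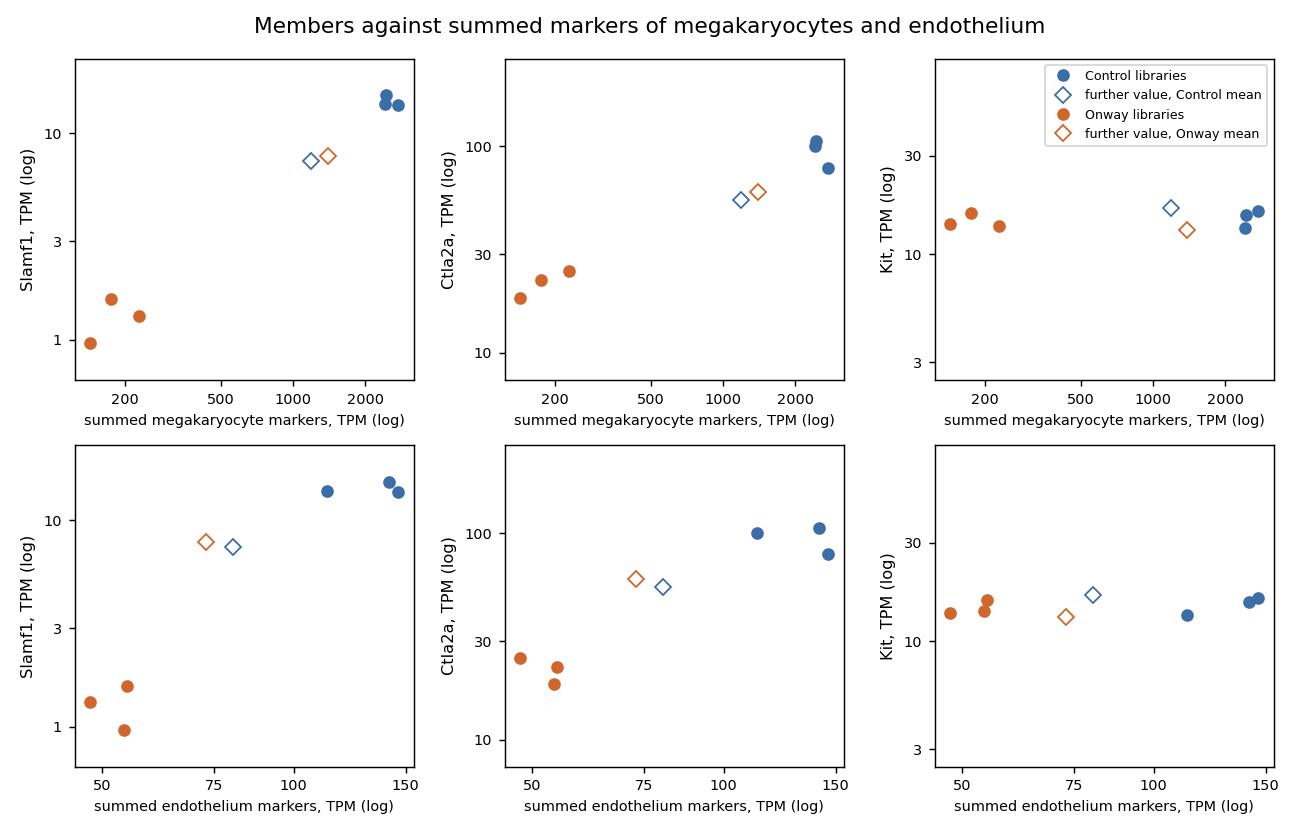
Slamf1, Ctla2a and Kit (TPM, log axes) against the summed TPM of 18 megakaryocyte markers (upper row) and 18 endothelial markers (lower row). Filled points are the 6 libraries and open diamonds are the value that the authors' group mean holds beyond them. Slamf1 and Ctla2a are low where the marker sums are low, whereas Kit stays between 13.1 and 16.7 TPM throughout.

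The authors' deposited table also gives a mean TPM per group, and 4 times that mean was never below the summed TPM of the 3 libraries of its group for any transcript, within 0.011 TPM. Each mean therefore holds a further value, whose library was not used here and which enters no test. For Slamf1 the authors' deposited table leaves 7.37 TPM to the further Control value, 7.79 TPM to the further Onway value, and for Ctla2a 54.8 and 60.0 TPM. These values lie between the groups of libraries and do not show the difference seen in them. Of the marker sums, the table leaves 1187 and 1394 TPM for megakaryocytes, 80.4 and 72.9 TPM for endothelium and 85.6 and 77.3 TPM for stroma, also between the groups of libraries. For muscle it leaves 22.2 and 20.6 TPM, both inside the Onway range and below every Control library. For Kit it leaves 16.7 and 13.1 TPM, for Meis1 3.74 and 3.63 TPM, for Cd34 13.1 and 14.8 TPM and for Hlf 2.06 and 1.78 TPM. Between the authors' deposited means, which contain the 3 libraries, Slamf1 differed 4.33-fold and Ctla2a 2.70-fold.

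The wider stem cell list, chosen by knowledge of stem cells with earlier results of these data in view, held called and uncalled genes too. Of 24 genes 15 were tested, and 3 fell and 0 rose in limma, beside 2.99% and 0.233% of all tested genes. At an unadjusted p under 0.05 there were 4, all lower, where 8.42% of all tested genes were lower. The median log2 fold change was −0.23, where it was 0.03 over all genes. Among the genes that fell were Angpt1, an angiopoietin made by stem cells, megakaryocytes and stroma (9.69 ± 0.526 against 2.37 ± 0.272 TPM, adjusted p = 0.0019), and Myct1, a target of MYC that endothelium also makes (5.50 ± 0.495 against 1.01 ± 0.331 TPM, adjusted p = 0.0038). Hoxa9, a homeobox partner of Meis1, was at 5.34 ± 0.588 and 3.00 ± 0.742 TPM without overlap (adjusted p = 0.19). The most abundant members that were not called were Pdzk1ip1 (57.7 ± 18.8 and 49.6 ± 17.8 TPM) and Gcnt2, a glucosaminyltransferase (20.2 ± 8.28 and 34.7 ± 15.5 TPM). The remaining genes of the list had means under 1 TPM over the 6 libraries and were not tested. Onway lay below Control in Hoxa10, Fgd5, Mycn, Zfp521 and Ndn. The groups overlapped in Hoxb5, Hoxa5, Prdm16 and Nkx2-3, and the Onway mean was the higher in Hoxa5 and Prdm16. No share without overlap is given for all genes at such low levels.

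Of 20 tested genes of multipotent and early committed progenitors 0 were called in limma. At an unadjusted p under 0.05 there were 4, all higher in Onway, where 4.95% of all tested genes were higher. The median log2 fold change was 0.22, and 6 genes had every Onway library above every Control library, where 6.95% of all tested genes did. Flt3, the receptor of lymphoid-primed progenitors, measured 4.03, 2.90 and 3.69 TPM among Control libraries, compared with 5.42, 7.01 and 6.04 TPM among Onway libraries (limma adjusted p = 0.16). Lmo2 and Lyl1, which form a complex with Tal1, were the most abundant, at 157 ± 56.4 and 151 ± 20.4 TPM and at 80.3 ± 4.40 and 93.5 ± 15.7 TPM. None of these genes passed the threshold in either direction.

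Beside 2.99% of all tested genes that were lower, partners of the factors and receptors among the members gave 2 called genes of 14 tested, both lower. Among them was Kitl, the ligand of Kit made by stroma and endothelium, which was lower in Onway (3.57 ± 0.965 against 0.513 ± 0.107 TPM, log2 fold change −1.57, SE 0.24, limma adjusted p = 0.012). With an Onway mean under 1 TPM, Kitl passed the minimum only through Control, and its difference from Kit was not tested. Mast cells, which carry Kit too, share a list with basophils here. That list had 0 of 6 tested markers called and 0 at an unadjusted p under 0.05, with sums of 141 to 558 TPM in Control and 213 to 563 TPM in Onway. Its protease genes Tpsb2, Tpsab1, Cma1 and Mcpt4 averaged under 1 TPM and were not tested. Mcpt8 and Hdc led the sum, at 166 and 116 of 350 TPM in Control and 149 and 142 of 352 TPM in Onway. The list therefore says little about mast cells apart from basophils. Erythroid markers had 0 of 10 called and 0 at an unadjusted p under 0.05, with sums of 1431 to 4299 TPM and 1822 to 3521 TPM. Neutrophil progenitor markers had 0 of 8 called and 2 at an unadjusted p under 0.05, both lower, where 8.42% of all tested genes were lower. They had sums of 4560 to 9058 TPM and 2345 to 4874 TPM, and a median log2 fold change of −0.89. Their part in the level of Kit was not tested.

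**Figure D4:**
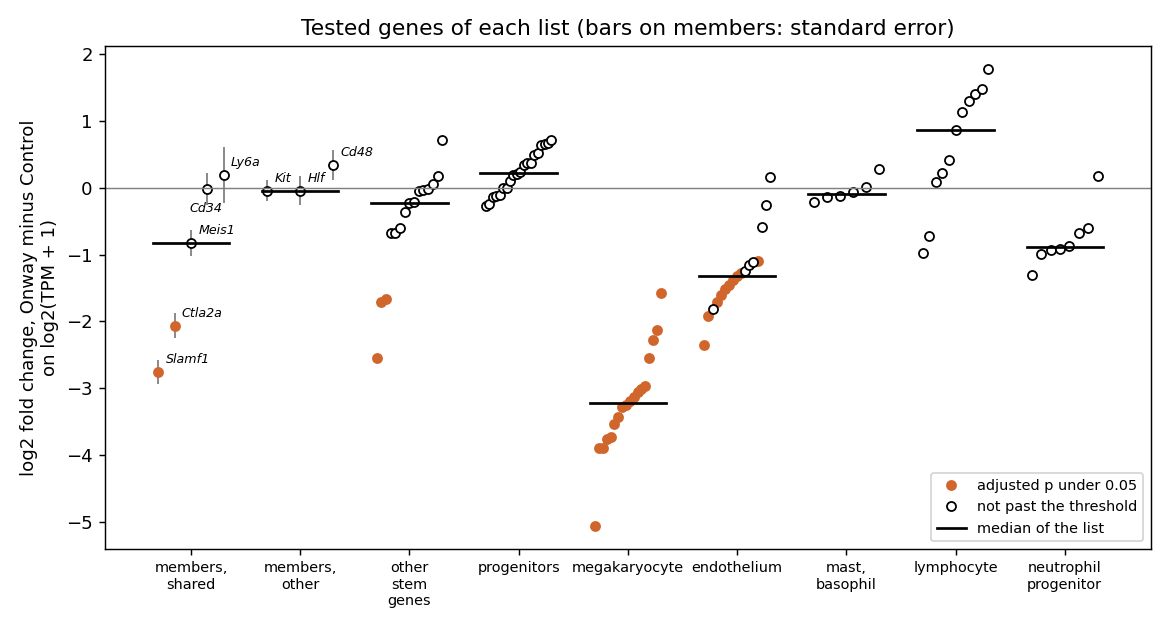
Log2 fold change (Onway minus Control, on log2(TPM + 1)) of each tested gene by list, filled where the adjusted p was under 0.05, with the list median as a bar and standard errors on the members. Slamf1 and Ctla2a lie within the range of the megakaryocyte genes, and Ctla2a lies within that of the endothelial genes as well. Kit, Hlf and Cd34 lie near 0. The progenitor genes, none past the threshold, have their median at 0.22.

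The genes whose levels ran most like each member over the 6 libraries were taken among genes of at least 5 TPM, as a description by Pearson correlation of log2(TPM + 1), in which a difference between the groups weighs heavily. For Slamf1 they were the tetraspanin gene Tspan4, the platelet chemokine gene Pf4 and Angpt1, each with r = 0.997. For Ctla2a they were Pcp4l1 (0.997), the osteocyte gene Dmp1 (0.995) and Atp5o (0.994), and for Meis1 the integrin gene Itgb5 (0.998), Fcgrt (0.995) and Frmd4b (0.994). For Kit they were Frmd4a (0.979), Thap12 (0.9748) and Mapk9 (0.9747), none of which shifted between the groups by more than its spread. Slamf1 itself correlated with Ctla2a at r = 0.992 and with Meis1 at 0.958, and with Kit at 0.254 and Hlf at 0.210.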

How the data were processed

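The authors deposited 1 table of TPM for 158850 transcripts in 6 libraries, with their own mean TPM per group. Per the submitters' processing notes the builds were GRCm38 and mm10. The aligner and quantifier and their settings and the use of strand are not given here in any label or header. Library preparation used a SMARTer kit, per the labels' protocols. The TPM of each library summed to about 1000000, which keeps no read depth, so no counting interval or detection limit is given. The number of genes at 1 TPM or more ranged from 13354 to 14252. The deposited table also holds transcript length, which the authors give as a number of bases (other), used to describe transcripts.

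Columns were matched to samples by group name and number, the Onway columns by number alone. Transcript TPM was summed to genes. Genes averaging 1 TPM or more were fitted as log2(TPM + 1) on all 6 libraries with limma 3.58.1 (R 4.3.3), with mean-variance trend and robust moderation and no covariate, and Benjamini-Hochberg adjustment over 14192 genes at 0.05. The fit was tested on simulated data. Sums and ratios were compared by two-sided exact permutation. Coordinates, coding lengths and the 31-base words are from GENCODE M21 (GRCm38).

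The members and lists were chosen with earlier results of these data known. Named genes are the 10 members, the called genes of each list (at most 4 by p), at most 2 of its most abundant uncalled genes and the 3 genes most like each tested member, and others were named after their values were seen. Some genes that this rule names are not reported here. Alternatives were other pseudocounts, minimums and scalings, Ensembl transcripts only, limma without trend, and leaving out libraries.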

Additional observations from a re-analysis of the deposited data

Results flagged for a closer look

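The value that the authors' deposited Onway mean holds beyond the 3 libraries lay above every Control value, the further Control value included, for 2 members. It was 42.9 TPM for Cd48, where the Control libraries reached 41.0 TPM and the further Control value was 29.2 TPM. For Mecom it was 0.460 TPM, where the Control libraries reached 0.340 TPM and the further Control value was 0.210 TPM. Neither was tested.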

How the results depend on the processing

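The calls of Slamf1 (adjusted p from 0.00030 to 0.0095) and Ctla2a (0.00053 to 0.014) held under all 15 alternatives, and no member was higher under any. The number of members lower was 2 under 14 alternatives and 3 under median-of-ratios size factors, where Meis1 passed (adjusted p = 0.037, against up to 0.31 under the others). Signs of uncalled members changed on leaving out single libraries, where the log2 fold change ran from −0.20 to 0.16 for Cd34, from −0.11 to 0.55 for Ly6a, from −0.12 to 0.010 for Kit and from −0.12 to 0.043 for Hlf. Without both Control 4 and Onway 3 it was 0.032 for Kit and 0.020 for Hlf. The sum of the 3 other members differed by −0.048 without Cd48. The cause of these reversals was not tested. All 112 alternatives of the 16 ratios kept their sign. These alternatives used Ensembl transcripts only or left out a single library, and the genes of the marker lists were not varied. Meis1 and Hlf lie below 5 TPM and have no value at that minimum. No paired analysis was possible because the groups share no replicate numbers. With 3 libraries a group, an exact permutation p cannot go below 0.1, and TPM gives no depth.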

Other observations

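Relatives of the surface proteins among the members did not move with Slamf1. Of 12 tested SLAM and Ly6 relatives and the Ctla2a copy, 1 fell in limma, which was Ctla2b, and 0 rose, beside 2.99% and 0.233% of all tested genes. At an unadjusted p under 0.05, 3 were higher, where 4.95% of all tested genes were higher. Slamf7, a receptor of plasma cells and lymphocytes, averaged 3.12 ± 0.838 TPM against 8.08 ± 2.55 TPM, higher in each Onway library (limma adjusted p = 0.087), and Slamf6, a receptor of lymphocytes, at 5.90 ± 1.45 and 12.7 ± 5.78 TPM (adjusted p = 0.35). The most abundant were Ly6g, the neutrophil antigen, at 588 ± 210 and 582 ± 163 TPM, and Ly6e at 579 ± 64.0 and 582 ± 146 TPM. Of 11 tested lymphocyte markers 0 were called in limma and 6 had an unadjusted p under 0.05, 5 of them higher, where 4.95% of all tested genes were higher at that level. Cd79a, a signalling chain of the B cell receptor, was at 45.1 ± 11.5 and 145 ± 81.2 TPM (adjusted p = 0.30).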
